A study of Mus musculus with 4 samples.

Results

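Hlf, Meis1, Mecom, Hoxa9, Gata2, Runx1, Tal1, Lmo2, Erg and Mycn are transcription factors and cofactors known for their roles in blood stem cells. They were chosen by name, are 10 of the 31053 genes in the files, and each has 1 row in every library. Their UMIs (unique molecular identifiers, each marking 1 captured transcript) were followed through the bone marrow mononuclear cells of C57BL/6 mice. The cells had been flushed from femur and tibia and separated on Ficoll, and transcripts were captured at their 5′ ends, in 1 library for each of 2 TLR9-/- mice, which lack the DNA-sensing Toll-like receptor 9 in all cells, and 2 wild-type (WT) mice. The mice carried no other allele or treatment named in the labels, and their age is not given in the sources used here. The study asked whether and how TLR9 is needed for normal bone remodelling. These libraries were its look at how loss of TLR9 affects the cell lineages of the marrow. With 2 libraries per genotype, the comparison of genotypes in them rests on 4 mice. Per its methods the mice were run in 2 experiments, with 1 mouse of each genotype in each, but the sources used here do not say which libraries shared an experiment.

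Blood stem cells keep their identity through factors that bind DNA together and activate each other's genes. TAL1, LMO2, GATA2, RUNX1, ERG, FLI1 and LYL1 form a group that often occupies the same enhancers in these cells. MEIS1 binds DNA alongside HOXA9, and HLF, MECOM and MYCN are tied to self-renewal and quiescence. Most of these factors are lost as cells mature. Some stay on in 1 branch, as TAL1 and LMO2 do in red cell precursors and GATA2 in mast cells and basophils.

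Since no cell annotation was among the files used here, cells were sorted into 6 gates by marker genes that include none of the 10 factors. A stem-like cell had at least 2 of Procr, Ifitm1, Ly6a, Mllt3, Fgd5, Esam, Slamf1, Ctla2a and Hacd4 above the level that free RNA could give, and at least 1 UMI of the progenitor genes Kit or Cd34. The lymphoid-primed-like gate (led by Flt3 and Dntt) and the myeloid-progenitor-like gate (Mpo, Elane) were set in the same way. At least 3 markers were needed for the megakaryocyte-like gate (Pf4, Itga2b), the erythroid-precursor-like gate (Klf1, Car1) and the basophil- and mast-cell-like gate (Mcpt8, Cpa3), without the need for Kit or Cd34. A cell had to have more markers of its own class than of any other. The stem-like gate held 190 cells, the lymphoid-primed gate 191, the megakaryocyte gate 89, the erythroid gate 1285, the basophil gate 681 and the myeloid gate 1568. Together these 4004 cells were 10.2% of the 39167 cells kept and carried 30.1% of their UMIs.

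Since the markers set the gates, their shares only describe them. Ctla2a was detected in 93.2% of the stem-like cells and in 3.08% of the cells outside the gates, Flt3 in 82.2% of the lymphoid-primed cells, Pf4 in 94.4% of the megakaryocyte cells, Car1 in 90.2% of the erythroid cells, Cpa3 in 86.8% of the basophil cells and Mpo in 99.6% of the myeloid cells. Procr, a marker of the most immature stem cells, was detected in 18.9% of the stem-like cells. In the gates that did not need Kit or Cd34, a UMI of either was found in 36% of the megakaryocyte, 30.7% of the erythroid and 9.25% of the basophil cells, so that most cells of each had none. Endothelial cells, which also express Erg, Tal1, Gata2 and Mecom, could have entered the stem-like gate. Of 7 endothelial markers, Cdh5 and Stab2 had 0 UMIs there in every library, and Kdr and Cldn5 1 UMI each. Pecam1 had 31 UMIs there, Emcn 19 and Tek 5. The whole list was at 41.5 to 55.9 CPM (counts per 1000000 UMIs of a gate and library). Their part in the levels below was not tested. The summed level of the 9 stem markers did not single out the stem-like gate, where it was 2304 to 3494 CPM. It was 2832 to 3909 CPM in the basophil gate. In the megakaryocyte gate it was 3477 CPM in WT library 1 and 975 to 1816 CPM in the other libraries, below the stem-like range. Among the stem-like cells Ifitm1 was detected in 93.2%, but Slamf1 in 6.32% and Fgd5 in 3.16%.

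The 4 libraries held 31210188 to 63958243 UMIs in the cells kept, with a median of 1759 to 3618 UMIs per cell, and both TLR9-/- libraries were deeper than both WT libraries. Over all cells, Tlr9 itself had 120 and 97 UMIs in WT mice but 41 and 48 in TLR9-/- mice. Any pair of libraries shared 112 to 185 cell barcodes, of which 0 to 3 lay in the gates. The megakaryocyte gate of WT library 1 stood apart. Its 13 cells had a summed level of the 6 myeloid markers of 12065 CPM, against 108 to 349 in the other 3 libraries, and of the 8 monocyte markers of 4545, against 53 to 536. Fold changes and called differences of the megakaryocyte gate are therefore given also without it. In the basophil gate the 8 neutrophil markers summed to 8121 and 2314 CPM in TLR9-/- and to 261 and 941 CPM in WT mice, and their part in its values was not tested.

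Levels of a gene are in CPM, with library 1 before library 2 of each genotype. Differences between gates are log2 fold changes from edgeR's quasi-likelihood test over 24 sums (6 gates in 4 libraries), with the library as a block, p-values adjusted over 6438 genes and 0.05 as the threshold. Each SE (standard error) of a fold change is its size divided by the square root of the test's F statistic. Bars of 1 standard error in the figures use the same value. Of the 10 factors, Mecom and Erg had too few UMIs for this fit, and Mycn had 0 UMIs in the whole basophil gate, so that its fitted values depend on the prior count and are not given. The other 7 were tested in every gate. A gene was compared between gates only with itself, since the capture of 5′ ends differs between genes.

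**Figure D1:**
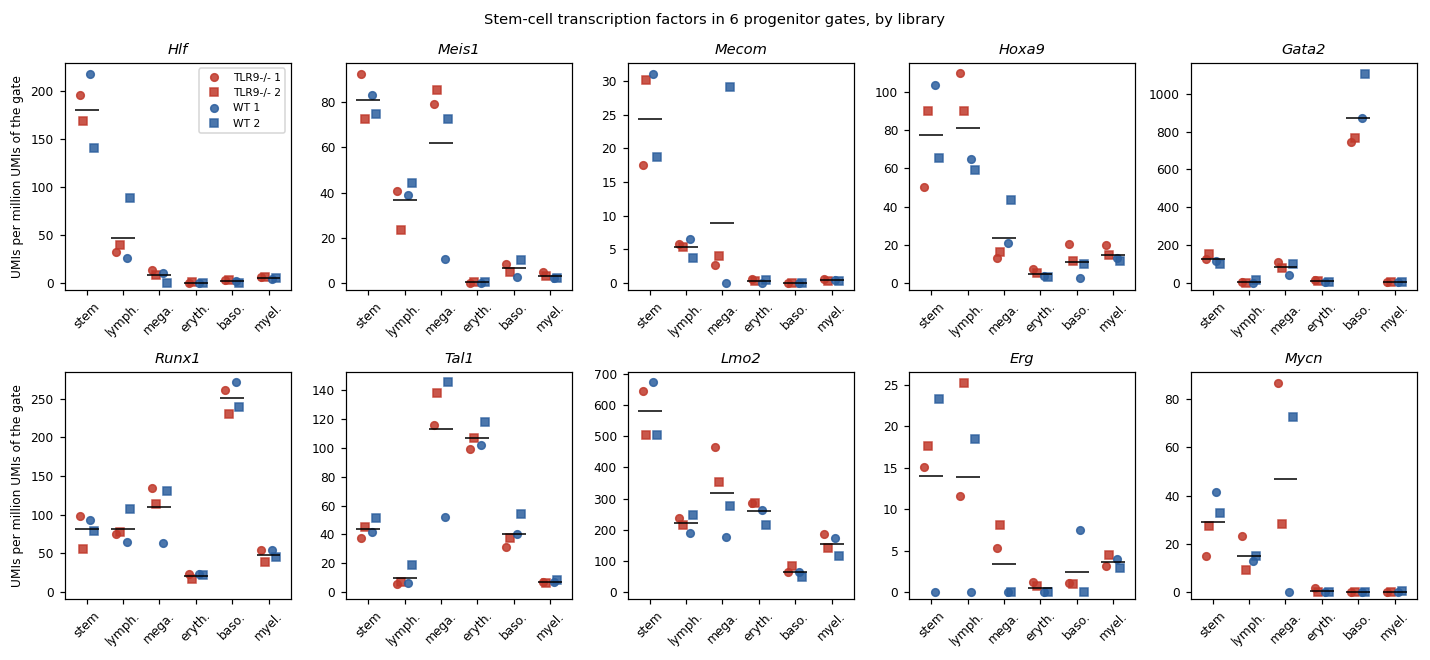
Level of each of the 10 factors (y axes, CPM) in the 6 gates (x axis), with 1 point per library and the mean of the 4 libraries as a bar. Hlf peaks in the stem-like gate (139.9 to 218 CPM), Gata2 and Runx1 in the basophil gate, Tal1 in the megakaryocyte and erythroid gates.

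To show what lies at the start of members with distinct patterns, the 250 bases before the start of Hlf (highest in the stem-like gate), Gata2 (basophil gate) and Tal1 (erythroid precursors) are printed from RefSeq's GRCm38.p6 table, read 5′ to 3′ on the strand of the gene. Capitals mark the letters GATAA (the motif of the GATA factors), CAGCTG (an E-box, the kind of site bound by TAL1 with an E protein), CAGATG as another E-box, the RUNX motif TGTGGT or CCGGAA (a motif of ETS factors such as ERG), on either strand.
Hlf, chr11:90390918-90391167, minus strand: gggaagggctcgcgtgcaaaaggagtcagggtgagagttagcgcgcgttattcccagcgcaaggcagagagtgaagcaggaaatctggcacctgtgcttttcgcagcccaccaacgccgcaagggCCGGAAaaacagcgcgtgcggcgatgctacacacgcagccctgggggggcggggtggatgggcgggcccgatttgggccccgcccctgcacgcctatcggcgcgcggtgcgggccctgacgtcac
Gata2, upstream start, chr6:88193641-88193890, plus strand: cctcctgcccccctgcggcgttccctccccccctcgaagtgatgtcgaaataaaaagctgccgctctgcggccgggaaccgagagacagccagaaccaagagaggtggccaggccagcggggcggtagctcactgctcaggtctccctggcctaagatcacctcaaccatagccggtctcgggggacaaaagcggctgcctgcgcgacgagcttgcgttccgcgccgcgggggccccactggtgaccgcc
Tal1, upstream start, chr4:115056176-115056425, plus strand: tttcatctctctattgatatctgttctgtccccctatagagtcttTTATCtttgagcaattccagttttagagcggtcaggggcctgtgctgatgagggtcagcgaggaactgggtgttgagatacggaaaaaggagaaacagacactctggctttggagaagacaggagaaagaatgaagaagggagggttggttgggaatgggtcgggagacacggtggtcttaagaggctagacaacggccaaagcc
The Hlf window held 1 CCGGAA, the Gata2 window none of these letters, and the Tal1 window 1 GATAA, here read as its reverse complement. The table held 15 windows for 9 of the factors, all but Lmo2. Among these, GATAA stood in 5 (both Mecom windows and 1 each of Hoxa9, Tal1 and Erg), CCGGAA in 3 (Hlf, Meis1 and the downstream Runx1 window), TGTGGT in 1 (Meis1), CAGATG in 1 (Mecom) and CAGCTG in 0. Among all 32851 promoter windows of the same length, 22.6% held GATAA, 12.0% CCGGAA, 14.0% TGTGGT, 14.4% CAGATG and 13% the other E-box, CAGCTG. These matches describe the windows and do not show binding. G and C made up 67.2% of the Hlf window, 67.2% of the Gata2 window and 48.8% of the Tal1 window, where the median of all windows was 52.4%.

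Hlf (ENSMUSG00000003949, chr11:90336536-90390895, minus strand), a bZIP factor known for keeping stem cells quiescent, had the largest fold change of the 7 factors tested in the stem-like gate. It stood there at 195 and 168 (TLR9-/-) and 218 and 139.9 (WT) CPM. The lymphoid-primed gate had 31.8 and 39.6 (TLR9-/-) and 26 and 88.7 (WT) CPM, the highest of them in WT library 2. All 4 stem-like values were thus above all lymphoid-primed values, in both genotypes. Hlf ranged from 0 to 13.2 CPM in the megakaryocyte gate, 4.49 to 6.71 in the myeloid gate, 0 to 3.2 in the basophil gate and 0.15 to 0.948 in the erythroid gate. Against the mean of the other gates it was higher in the stem-like gate by 5.0 (SE 0.23, adjusted p = 6.21e-15) and in the lymphoid-primed gate by 2.67 (SE 0.32, adjusted p = 2.73e-07). It was lower in the erythroid gate, with -4.79 (SE 0.45, adjusted p = 2.49e-10), in the basophil gate, with -2.15 (SE 0.53, adjusted p = 0.00111), and in the myeloid gate, with -0.73 (SE 0.28, adjusted p = 0.0346). The last of these was lost under several alternatives. In the order of levels, the stem-like gate exceeded the lymphoid-primed gate by 1.94 (SE 0.27, adjusted p = 1.61e-05), and this gate the megakaryocyte gate by 2.23 (SE 0.54, adjusted p = 0.00277), which was 2.33 (SE 0.59, adjusted p = 0.00493) without WT library 1. The megakaryocyte and myeloid gates, and the myeloid and basophil gates, did not differ beyond their spread.

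Meis1 (ENSMUSG00000020160, chr11:18879817-19018985, minus strand), the homeodomain partner of HOX proteins, marked both stem-like and megakaryocyte cells. It stood at 92.6 and 72.7 (TLR9-/-) and 83 and 74.6 (WT) CPM in the stem-like gate. In the megakaryocyte gate it was at 79 and 85.2 (TLR9-/-) and 10.5 and 72.7 (WT) CPM. WT library 1, whose megakaryocyte gate carried myeloid markers, is the low one there, and the other 3 libraries overlap with the stem-like values. Lymphoid-primed cells had 40.5 and 23.4 (TLR9-/-) and 39 and 44.3 (WT) CPM, and the remaining gates at most 10.1 CPM. The log2 fold change was 3.41 (SE 0.26, adjusted p = 1.07e-10) in the stem-like gate, 3.10 (SE 0.31, adjusted p = 7.11e-09) in the megakaryocyte gate and 1.94 (SE 0.31, adjusted p = 2.33e-05) in the lymphoid-primed gate. Without WT library 1 the megakaryocyte value was 3.22. The stem-like and megakaryocyte gates did not differ beyond their spread. The megakaryocyte gate exceeded the lymphoid-primed gate by 0.97 (SE 0.35, adjusted p = 0.0427), or by 1.19 (SE 0.33, adjusted p = 0.0106) without WT library 1, a call that other alternatives did not keep. Meis1 was lower than the mean of the other gates in the myeloid gate (-1.92) and in the erythroid gate (-5.68), where 2 of the 4 libraries had 0 UMIs.

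Hoxa9 (ENSMUSG00000038227, chr6:52223100-52231089, minus strand), a homeobox factor of early progenitors, was highest in lymphoid-primed and stem-like cells. The lymphoid-primed gate had 109.9 and 90.1 (TLR9-/-) and 65 and 59.1 (WT) CPM, and the stem-like gate 50.1 and 90.3 (TLR9-/-) and 104 and 65.3 (WT) CPM. These values overlap, and the gates did not differ beyond their spread. Hoxa9 was higher than the mean of the other gates by 2.31 (SE 0.22, adjusted p = 6.63e-09) in the lymphoid-primed gate and by 2.03 (SE 0.25, adjusted p = 6.78e-07) in the stem-like gate, which exceeded the megakaryocyte gate by 2.12 (SE 0.42, adjusted p = 5.08e-04). This difference was 2.10 without WT library 1. It was lower in the erythroid gate (3.29 to 7.33 CPM, -2.45 (SE 0.23, adjusted p = 2.29e-10)). In the myeloid gate, where Hoxa9 stood at 11.6 to 20.1 CPM, and in the basophil gate (2.51 to 20.3 CPM) the log2 fold changes were -0.50 and -0.87, and both calls were lost under some alternatives. The myeloid gate, the largest of the 6, held 35.8% of all Hoxa9 UMIs.

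Mecom (ENSMUSG00000027684, chr3:29951296-30548008, minus strand) encodes the zinc finger factor EVI1, required for long-term stem cells, and was too rare for the fit. It had 7 and 12 (TLR9-/-) and 3 and 4 (WT) UMIs in the stem-like gate, which is 17.5 to 31.1 CPM. The lymphoid-primed gate had 3.69 to 6.5 CPM, on 7 UMIs in all and 1 to 3 per library. The values of these gates did not overlap, but counts this low leave a wide counting error, and the difference was not tested. In the megakaryocyte gate the level was 2.63 and 4.06 (TLR9-/-) and 0 and 29.1 (WT) CPM, of which the highest rests on 2 UMIs in 11 cells. The basophil gate had 0 UMIs in every library, which at 3 UMIs allows at most 2.86 to 10.1 CPM, and the erythroid and myeloid gates had at most 0.589 CPM. Stem-like cells, 190 of 39167, held 31.3% of all Mecom UMIs.

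Mycn (ENSMUSG00000037169, chr12:12936093-12941914, minus strand), the MYC relative used by resting stem cells, had its highest mean levels in the megakaryocyte, stem-like and lymphoid-primed gates. Of its UMIs, 50.2% lay outside the 6 gates. B lineage cells held 18.4%, at 0.488 to 1.98 CPM, and cells in no gate and no mature class 25.9%. In the megakaryocyte gate Mycn had 33 and 7 (TLR9-/-) and 0 and 5 (WT) UMIs, or 86.9 and 28.4 (TLR9-/-) and 0 and 72.7 (WT) CPM. For WT library 1 the count of 0 allows at most 31.4 CPM. The stem-like gate had 15 and 27.6 (TLR9-/-) and 41.5 and 32.6 (WT) CPM, and the lymphoid-primed gate 23.1 and 9.01 (TLR9-/-) and 13 and 14.8 (WT) CPM. Over the erythroid, basophil and myeloid gates together, 6 of the 8 UMIs came from the erythroid cells of TLR9-/- library 1 and the basophil gate had 0. The order of the first 3 gates could not be read beyond the spread between libraries, which was widest in the megakaryocyte gate.

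Gata2 (ENSMUSG00000015053, chr6:88193891-88207032, plus strand), the GATA factor of stem cells and mast cells, reached its highest level in the basophil gate, at 746 and 764 (TLR9-/-) and 869 and 1106 (WT) CPM. The stem-like gate followed at 128 and 153 (TLR9-/-) and 114 and 103 (WT) CPM and the megakaryocyte gate at 111 and 81.2 (TLR9-/-) and 41.9 and 102 (WT) CPM. No stem-like value came near the basophil values. The lymphoid-primed gate, which overlapped with the stem-like gate for Hoxa9, had nearly none, at 2.89 and 0 (TLR9-/-) and 0 and 14.8 (WT) CPM. Against the mean of the other gates Gata2 was higher by 5.66 (SE 0.15, adjusted p = 7.97e-22) in the basophil gate, 2.23 (SE 0.28, adjusted p = 7.46e-07) in the stem-like gate and 1.58 (SE 0.35, adjusted p = 0.00146) in the megakaryocyte gate. It was lower in the lymphoid-primed gate, with -3.87 (SE 0.58, adjusted p = 1.02e-05), in the myeloid gate (-3.47) and in the erythroid gate (-2.13), the last not called without WT library 2. The basophil gate exceeded the stem-like gate by 2.86 (SE 0.22, adjusted p = 6.25e-11), while the stem-like and megakaryocyte gates did not differ beyond their spread. The megakaryocyte gate exceeded the erythroid gate by 3.09 (SE 0.38, adjusted p = 1.38e-07). Without WT library 1 the megakaryocyte fold change was 1.63 and this difference 3.05. In all, 67.5% of the Gata2 UMIs of the marrow lay in the basophil gate and 4.5% in the stem-like gate.

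Runx1 (ENSMUSG00000022952, chr16:92601466-92826149, minus strand), needed for the birth of stem cells in the embryo and for megakaryocytes and lymphocytes later, was present in every gate. The basophil gate was highest, at 261 and 229.9 (TLR9-/-) and 271 and 239 (WT) CPM. It was followed by the megakaryocyte gate with 134 and 114 (TLR9-/-) and 62.8 and 131 (WT) CPM, in which WT library 1 was lowest. Stem-like cells, at 97.7 and 55.2 (TLR9-/-) and 93.3 and 79.3 (WT) CPM, overlapped with lymphoid-primed cells, at 75.2 and 77.5 (TLR9-/-) and 65 and 107 (WT) CPM. Runx1 was higher by 2.14 (SE 0.09, adjusted p = 2.06e-17) in the basophil gate and by 0.66 (SE 0.16, adjusted p = 0.00416) in the megakaryocyte gate (0.76 without WT library 1). The megakaryocyte call was lost without a filter on low counts (adjusted p = 0.0625) and without TLR9-/- library 1 (0.121) or 2 (0.0742). Runx1 was lower in the erythroid gate, at 17.1 to 23.2 CPM (-2.18), and in the myeloid gate (-0.72). The basophil gate exceeded the megakaryocyte gate by 1.23 (SE 0.15, adjusted p = 2.70e-07), or by 1.10 without WT library 1. The megakaryocyte gate did not differ from the lymphoid-primed gate, nor the stem-like from either of them, beyond the spread. Without WT library 1 the megakaryocyte gate exceeded the stem-like gate by 0.66 (SE 0.22, adjusted p = 0.0335). Outside the gates, B lineage cells had 53.5 to 69.2 CPM and held 23.5% of all Runx1 UMIs.

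Tal1 (ENSMUSG00000028717, chr4:115056426-115071755, plus strand), the basic helix-loop-helix factor at the head of red cell and megakaryocyte programmes, was highest in those branches. It stood at 116 and 138 (TLR9-/-) and 52.4 and 145 (WT) CPM in the megakaryocyte gate and at 99.1 and 107 (TLR9-/-) and 102 and 118 (WT) CPM in the erythroid gate. The 4 erythroid values lie within a narrow range, and only WT library 1 of the megakaryocyte gate falls below them. The stem-like gate had 37.6 and 45.1 (TLR9-/-) and 41.5 and 51.3 (WT) CPM. Tal1 was higher by 2.14 (SE 0.18, adjusted p = 2.50e-10) in the megakaryocyte gate (2.24 without WT library 1) and by 2.06 (SE 0.09, adjusted p = 9.42e-17) in the erythroid gate. It was lower in the lymphoid-primed gate (-2.33) and in the myeloid gate (-2.59). The erythroid gate exceeded the stem-like gate by 1.38 (SE 0.18, adjusted p = 2.01e-07). The megakaryocyte and erythroid gates, the stem-like and basophil gates, and the lymphoid-primed and myeloid gates did not differ beyond their spread. In cells with over 5% of their UMIs on globin genes, which the gates leave out, Tal1 was at 230.3 to 286 CPM, above every gate. These cells and the erythroid gate together held most of its UMIs (33% and 45.3%).

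Lmo2 (ENSMUSG00000032698, chr2:103957986-103981878, plus strand), the LIM-only protein that bridges TAL1 and GATA factors without binding DNA itself, was seen in every gate. The stem-like gate had 644 and 504 (TLR9-/-) and 674 and 504 (WT) CPM, and the megakaryocyte gate 466 and 353 (TLR9-/-) and 178 and 276 (WT) CPM. The erythroid gate had 285 and 284 (TLR9-/-) and 263 and 214 (WT) CPM. Stem-like values were above all others, and the megakaryocyte and erythroid gates overlapped. Lmo2 was higher in the stem-like gate by 1.59 (SE 0.12, adjusted p = 4.74e-11), in the megakaryocyte gate by 0.66 (SE 0.14, adjusted p = 9.26e-04) and in the erythroid gate by 0.35 (SE 0.10, adjusted p = 0.00232). The megakaryocyte value was 0.80 without WT library 1, and without TLR9-/- library 1 it was 0.46 and not called (adjusted p = 0.144). It was lower in the basophil gate, at 47.2 to 82 CPM, with -2.0 (SE 0.15, adjusted p = 3.91e-12), and in the myeloid gate (-0.54). The stem-like gate exceeded the megakaryocyte gate by 0.77 (SE 0.17, adjusted p = 0.00116) (0.58 without WT library 1), and the myeloid gate exceeded the basophil gate by 1.21 (SE 0.16, adjusted p = 4.28e-07). Globin-rich cells had 352 to 617 CPM, which overlaps with the stem-like range. The basophil gate, where Gata2 and Runx1 were highest, thus had the lowest mean Lmo2 level of the 6.

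Erg (ENSMUSG00000040732, chr16:95359169-95586593, minus strand), an ETS factor that stem cells require, had few UMIs in every class. In the stem-like gate it had 6 and 7 (TLR9-/-) and 0 and 5 (WT) UMIs, and in the lymphoid-primed gate its level was 11.6 and 25.2 (TLR9-/-) and 0 and 18.5 (WT) CPM. WT library 1 had 0 UMIs in both gates. The count of 0 allows at most 31.1 CPM in the stem-like and 19.5 CPM in the lymphoid-primed gate, so that this is within what its depth permits. The myeloid gate had 2.9 to 4.49 CPM, B lineage cells 4.39 to 5.82 and neutrophils 3.02 to 5.84. B lineage cells held 33% of all Erg UMIs and the stem-like gate 3.45%.

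Read by gate, the factors split into a few patterns. In the stem-like gate 5 of the 7 factors that were tested rose (Hlf, Meis1, Gata2, Hoxa9 and Lmo2) and 0 fell, where 14.7% of all genes tested were higher and 9.15% lower. In the lymphoid-primed gate 3 rose and 2 fell (background 15.4% and 11.7%). In the megakaryocyte gate 5 rose and 0 fell (11% and 6.29%). Hlf and Hoxa9 were the exceptions there, and 3 rose without TLR9-/- library 1. The erythroid gate had 2 higher (Tal1 and Lmo2) and 5 lower (37.8% and 36.9%), and the basophil gate 2 higher and 3 lower (31.5% and 27.8%). In the myeloid gate all 7 were lower, against 26.9% of all genes higher and 23.6% lower, with log2 fold changes from -3.47 for Gata2 to -0.50 for Hoxa9. These 34 calls kept their direction in each alternative run, and 30 to 34 of them kept their call.

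Contrasts of single gates against each other pass for many genes, which is the background to the orders of levels. Between the stem-like gate and the others, the share of the 6438 genes past the threshold was 6.17% for the lymphoid-primed, 19.4% for the megakaryocyte, 41.7% for the basophil and 58.9% for the erythroid gate. It was 23.1% between the lymphoid-primed and megakaryocyte gates, 45.6% between the megakaryocyte and erythroid gates and 40.5% between the megakaryocyte and basophil gates. Lmo2 (0.41) and Runx1 (0.67) were higher in the lymphoid-primed than in the myeloid gate, where 37.4% of genes passed, and neither call was kept in all alternatives. Meis1 was higher in the lymphoid-primed than in the basophil gate by 2.33 (SE 0.43, adjusted p = 6.64e-05), and Tal1 lower by 2.21, in a contrast that 47.7% of genes passed. Between the myeloid and erythroid gates (73%), Meis1 and Runx1 were higher in the myeloid and Gata2 in the erythroid gate, and between the basophil and erythroid gates (75.1%), Hlf and Hoxa9 were higher in the basophil gate. The basophil and myeloid gates differed in 60.4% of genes.

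**Figure D2:**
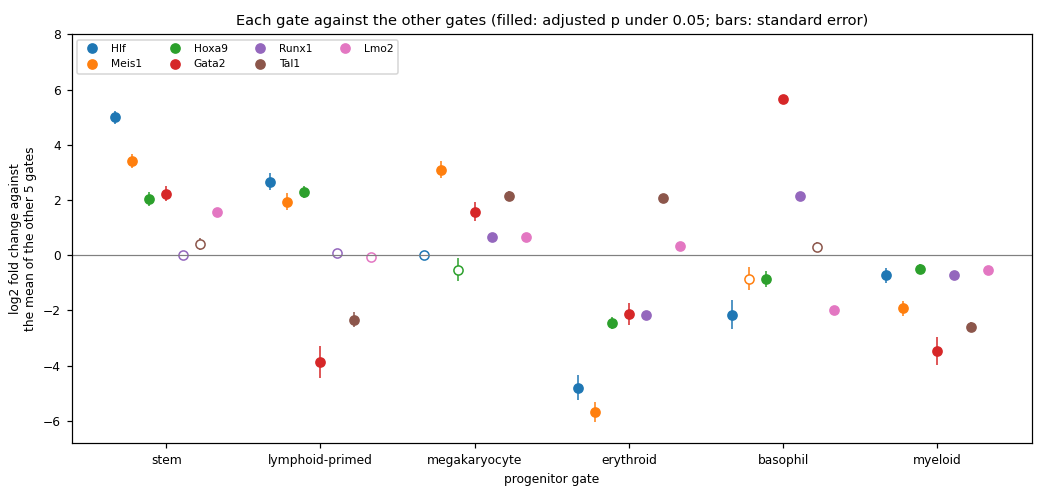
Log2 fold change of each gate against the mean of the other 5 (y axis) for the 7 factors tested in every gate (colours and x position), with bars of 1 standard error and filled points past an adjusted p of 0.05. In the stem-like gate all 7 factors lie above 0, 5 of them past the threshold (Hlf at 5.0), and in the myeloid gate all 7 lie below 0.

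In the mature classes outside the gates Hlf and Mecom were low. Hlf was at 0.426 to 1.14 CPM in B lineage cells and 2.08 to 4.33 in neutrophils, and Mecom at no more than 0.325 CPM in B lineage cells. Even so, 40.4% of Hlf UMIs and 52.1% of Meis1 UMIs lay outside the 6 gates, and 19.2% and 23.3% in cells that were in no gate and no mature class. Lmo2 kept 39.4 to 52.3 CPM in neutrophils and 59.6 to 87.4 in monocytes and macrophages. Runx1 was at 22.6 to 34 CPM in neutrophils. Gata2 was below 2 CPM in B lineage cells, neutrophils, and monocytes and macrophages in every library.

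**Figure D3:**
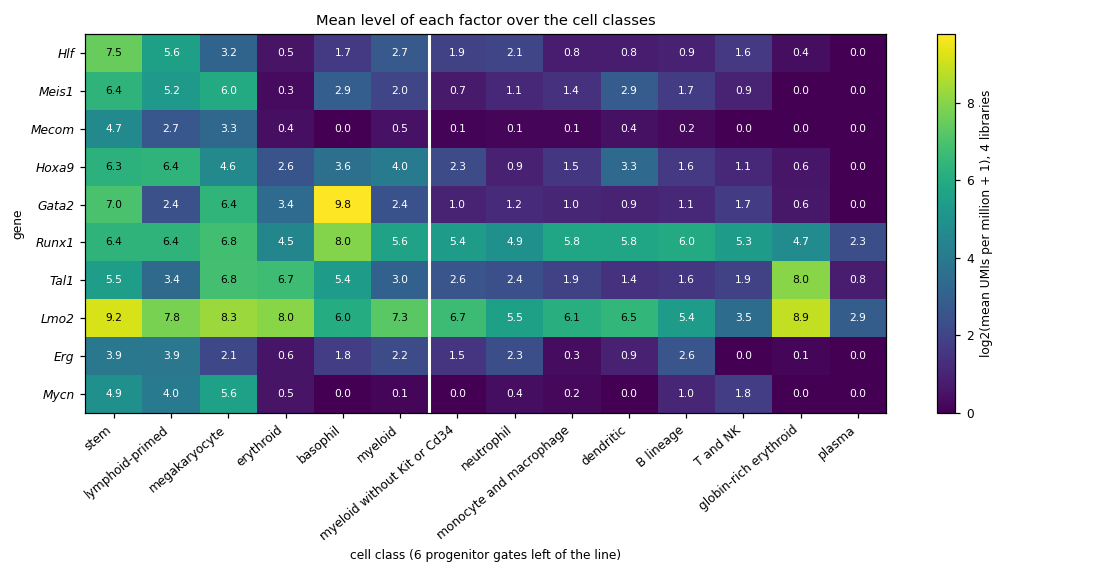
Mean level over the 4 libraries (colour, log2 of CPM + 1) of the 10 factors (rows) in the 6 gates and the mature classes (columns). Lmo2 and Runx1 are present in most columns. Hlf has its highest means in the stem-like and lymphoid-primed columns. Meis1, Mecom and Mycn have theirs in the stem-like, lymphoid-primed and megakaryocyte columns, where the Mecom megakaryocyte mean rests on 4 UMIs.

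Among single stem-like cells, Lmo2 was the factor seen most often and Hlf came next. To compare cells of different depth, each cell was thinned to 2000 UMIs, and the share of cells with at least 1 UMI was averaged over the 4 libraries (mean ± SD, n = 4 mice). Of the stem-like cells, 3 TLR9-/- and 1 WT cell were too shallow. Among B lineage cells 3408 of 5272 TLR9-/- and 5693 of 8641 WT cells were left out. Among neutrophils it was 1264 of 3469 and 1096 of 2508. The shares of these 2 classes thus describe their deeper cells only. Lmo2 was seen in 71.9% ± 11.6 of stem-like cells, against 6.0% ± 2.52 of B lineage cells, which should lack most of these genes. Hlf was seen in 27.4% ± 3.31 (B lineage 0.162% ± 0.085), Meis1 in 16.1% ± 4.27, Gata2 in 15.8% ± 5.71 and Hoxa9 in 11.7% ± 4.07. The Runx1 share, 12.8% ± 4.79, was close to that in B lineage cells, 10.8% ± 0.967. Tal1 was seen in 11.1% ± 1.74, Mycn in 8.82% ± 2.57, Mecom in 3.89% ± 2.72 and Erg in 2.37% ± 2.75. At full depth these shares were higher, with 89.8% ± 4.53 for Lmo2, 48.4% ± 5.19 for Hlf and 13.2% ± 6.45 for Mecom, at median depths of 3207.5 to 7100 UMIs per stem-like cell. In the basophil gate Gata2 was seen in 75% ± 7.38 and Runx1 in 40.3% ± 4.99 of thinned cells, after 163 of 445 TLR9-/- and 106 of 236 WT cells were left out as too shallow.

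Of all gates, stem-like cells showed the most factors per thinned cell. They had 1.82 ± 0.12 of the 10 factors on average (SD, n = 4 mice; range 1.67 to 1.94), and 25.0% ± 7.39 of them had 3 or more. The basophil gate had 1.35 ± 0.0646, mostly from Gata2 and Runx1, and 6.39% ± 1.69 of its cells had 3 or more. Lymphoid-primed cells had 0.808 ± 0.169, erythroid cells 0.694 ± 0.052, myeloid cells 0.452 ± 0.0612 and B lineage cells 0.196 ± 0.0142. The 4 stem-like means did not overlap with those of the basophil, lymphoid-primed, erythroid, myeloid or B lineage cells. They did overlap with the megakaryocyte gate (1.27 ± 0.508, range 0.556 to 1.73), whose lowest mean was that of WT library 1.

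**Figure D4:**
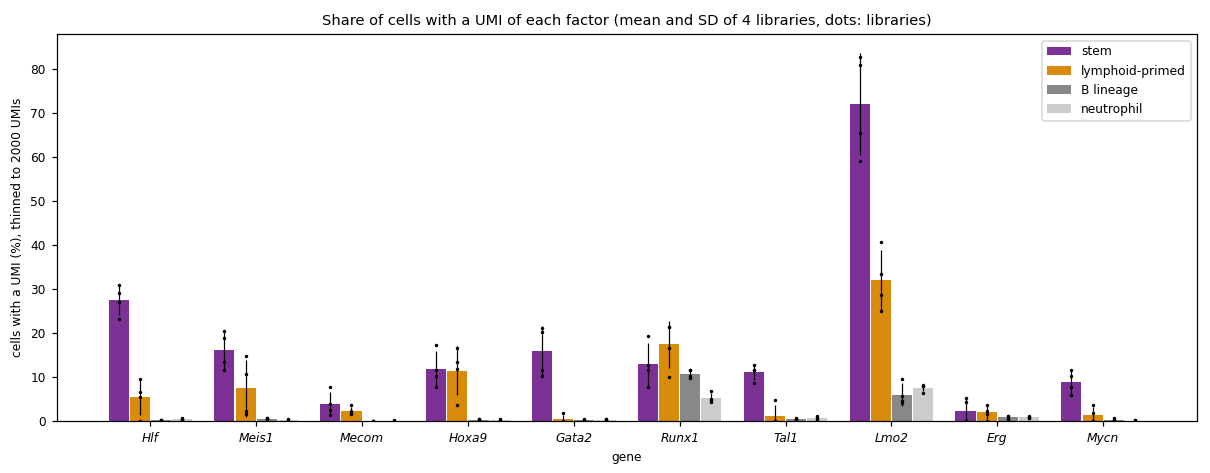
Share of cells with at least 1 UMI of each factor (y axis, percent) after thinning to 2000 UMIs. Stem-like and lymphoid-primed cells are drawn with B lineage and neutrophil cells as background, with 1 point per library and the mean as a bar. Lmo2 reaches 59.0% to 82.6% of stem-like cells. In the basophil gate, which is not drawn, Gata2 reached 68.9% to 85.7% of cells.

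In the fit of genotype alone, no factor was called between TLR9-/- and WT cells once p-values were adjusted over all genes of a gate. Between 4 and 8 factors passed the filter on low counts in a gate, and 10 did in the 6 gates summed. In the stem-like gate 0 of 8 were called, with log2 fold changes of TLR9-/- over WT from -0.77 to 0.35 and 0 with an unadjusted p under 0.05, where 0.025% of all genes were called. Hlf there was at 195 and 168 CPM against 218 and 139.9, and its groups overlap. Gata2 had both TLR9-/- libraries (128 and 153 CPM) above both WT libraries (114 and 103), and was not called. Mycn, with the lowest value (-0.77), had both TLR9-/- libraries below both WT libraries. Its means were 21.3 and 37.1 CPM, on 28 UMIs in all, and it was not called. The share of all genes without overlap in this gate is not given here. The lymphoid-primed gate had 0 of 5 called (0.0483% of all genes) with values from -0.84 to 0.64, and the megakaryocyte gate 0 of 6 (0%) with values from 0.31 to 1.02. Without WT library 1 the 6 megakaryocyte values ran from -0.28 to 0.54. In the basophil gate 0 of 4 were called (0.406%, values from -0.48 to 0.32) and in the myeloid gate 0 of 8 (0.211%, values from -0.31 to 0.64). In these 5 gates 0 factors had an unadjusted p under 0.05. DESeq2 also called 0 factors in every gate.

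The erythroid gate was the only single gate with a factor below 0.05 before adjustment. Of 5 factors tested, 0 were called and 1 had an unadjusted p under 0.05, where 0.344% of all genes were called and 6.78% had such a p. Gata2 was at 17.3 and 10.4 (TLR9-/-) and 4.68 and 6.44 (WT) CPM there. Both TLR9-/- libraries were above both WT libraries, and the log2 fold change was 1.17 (SE 0.34, adjusted p = 0.439). It was called without a filter on low counts (adjusted p = 0.00962) and when a block by library number was added (adjusted p = 0.0199), although that number is not stated to mark the experiment. The share of all genes called in this gate under these alternatives is not given here. For several lists of markers the genotypes did not overlap in this gate either. The 4 globin genes summed to 4833 and 7114 CPM in TLR9-/- and 8557 and 8779 CPM in WT libraries, and the 9 stem-like markers to 105 and 116 against 77.6 and 83.7 CPM. The monocyte and macrophage markers were also higher in both TLR9-/- libraries (230 and 298 against 176 and 183 CPM). The same held for the T and NK and the dendritic markers. B lineage markers were lower in both TLR9-/- libraries (55.7 and 97.4 against 149 and 130 CPM), as were the endothelial markers. The 8 basophil markers, at 11.1 and 40.4 against 4.68 and 42.4 CPM, were among the lists that overlapped. So were the 8 neutrophil markers, which were high in this gate, at 2016 and 5439 against 2869 and 6522 CPM. The 6 myeloid markers also overlapped, at 1105 and 2303 against 1234 and 1328 CPM. The part of these levels in the Gata2 value was not tested. In the same gate Tal1 and Lmo2, the factors it expresses most clearly, had log2 fold changes of -0.13 and 0.24 and were not called.

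Over the 6 gates summed, 0 of 10 factors were called and 2 had an unadjusted p under 0.05, with 0.239% of all genes called and 14.3% at such a p. Tal1 was at 34.7 and 43.7 (TLR9-/-) and 54.7 and 74.2 (WT) CPM, with a log2 fold change of -0.76 (SE 0.22, adjusted p = 0.231). Hoxa9 was at 19.9 and 14.2 (TLR9-/-) and 11 and 9.08 (WT) CPM, with 0.74 (SE 0.22, adjusted p = 0.254). For both, the genotypes did not overlap, and the same was true of Hlf, Meis1 and Erg, which were higher in both TLR9-/- libraries. The share of all genes without overlap in the sum is not given here. Without a filter on low counts both were called, with an adjusted p of 0.00969 for Tal1 and 0.0124 for Hoxa9, and a block by library number called both as well (adjusted p = 0.00513 and 0.0160). Both alternatives also called many more of all genes in the sum than the main fit did, as counted in the closing section on processing. The makeup of the sum moved with these values, and its part in the Tal1 and Hoxa9 values was not tested. Erythroid cells gave 24.4% and 33.8% of its UMIs in the TLR9-/- and 46.3% and 57.2% in the WT libraries, and myeloid cells 60.8% and 57.2% against 40.2% and 35.5%. Within the erythroid gate Tal1 was at 99.1 and 107 (TLR9-/-) and 102 and 118 (WT) CPM, with overlapping groups and a log2 fold change of -0.13 (SE 0.15, adjusted p = 0.909). Its groups also overlapped in the stem-like, lymphoid-primed and megakaryocyte gates. Tal1 was lower in both TLR9-/- libraries in the basophil gate (mean 34.1 against 47.1 CPM) and in the myeloid gate (mean 6.62 against 7.71 CPM), without a call in either.

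Whether the effect of genotype differed between the stem-like and the myeloid gate was tested for all 10 factors as an interaction, and 0 were called, where 0.151% of 9253 genes were. The smallest p was that of Gata2, with a difference of 0.66 on the log2 scale (SE 0.48, adjusted p = 0.952).

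**Figure D5:**
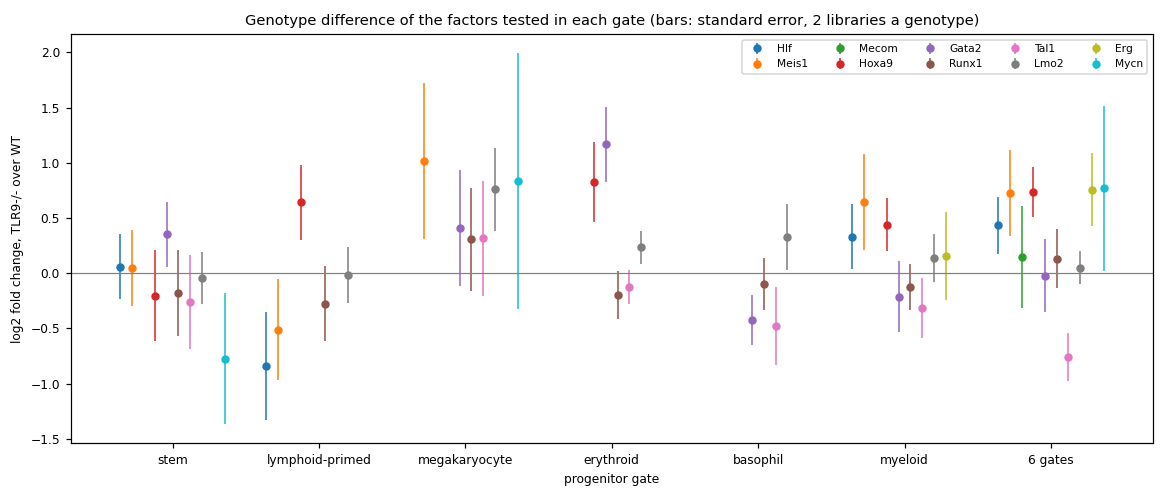
Log2 fold change of TLR9-/- over WT (y axis) with bars of 1 standard error for each factor tested (colours) in the 6 gates and in their sum (x axis), 2 libraries per genotype. Of these points 0 passed the threshold, and the largest value is that of Gata2 in the erythroid gate (1.17).

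To place the factors in their networks, 46 relatives and binding partners were followed in the same fits. None was called between the genotypes in any gate, of 17 to 34 tested per gate and 42 in the sum, with 1 to 3 per gate and 12 in the sum at an unadjusted p under 0.05. Of all genes, 5.21% to 10.1% per gate and 14.3% in the sum had such a p. DESeq2 called 1 in the sum and 0 in the gates. The smallest p-values belonged to Zfpm1, the cofactor of GATA1, in the sum at -0.94 (adjusted p = 0.179), Gfi1b, a repressor of red cell and megakaryocyte precursors, in the erythroid gate at 0.56 (adjusted p = 0.325), and Tcf4, an E protein, in the megakaryocyte gate at -2.57 (adjusted p = 0.912), or -2.13 (adjusted p = 0.535) without WT library 1. Without WT library 2 Tcf4 was called (-2.73, adjusted p = 0.00452). Myc, the relative of Mycn, had 0.96 (adjusted p = 0.665) in the stem-like gate.

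The partners also differed between gates. Of the 46, 29 passed the filter and had UMIs in every gate. In the stem-like gate 16 of these rose and 0 fell, where 14.7% and 9.15% of all genes did. In the lymphoid-primed gate 15 rose and 3 fell (15.4% and 11.7% of all genes), and in the megakaryocyte gate 7 rose and 2 fell (11% and 6.29%), with all 9 calls kept without WT library 1. The erythroid gate had 7 higher and 17 lower (37.8% and 36.9%), the basophil gate 8 and 9 (31.5% and 27.8%), and the myeloid gate 2 and 19 (26.9% and 23.6%). The 10 genes listed as partners of the LMO2-TAL1 complex (Cbfa2t3, Gata1, Gfi1b, Ldb1, Ssbp2, Ssbp3, Tcf3, Tcf4, Tcf12 and Zfpm1) were all lower in the myeloid gate, and Lyl1, a relative of Tal1 that stood in another list, was higher there (0.54). Gata1, which replaces GATA2 as red cells and megakaryocytes mature, was higher in the erythroid (3.80), megakaryocyte (3.85) and basophil (1.69) gates. Gata1 was lower in the lymphoid-primed gate (-5.40), where it had 1 UMI in all, so that the size of this value is uncertain. Its cofactor Zfpm1 was higher in the erythroid (2.99) and megakaryocyte (2.93) gates. Fli1, the ETS partner of the heptad and a megakaryocyte factor, was higher in the megakaryocyte (2.27) and basophil (1.18) gates. It was lower in the erythroid gate (-3.74). The megakaryocyte values of Gata1, Zfpm1 and Fli1 were 3.73, 3.06 and 2.28 without WT library 1.

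Among the homeobox relatives, Hoxa7, the neighbour of Hoxa9 in its cluster, was higher in the stem-like (2.23) and lymphoid-primed (2.05) gates. Cbfb, the subunit that RUNX proteins need to bind DNA, was higher in the basophil (1.09) and lymphoid-primed (0.87) gates and lower in the erythroid gate (-3.06). Runx2 rose in the lymphoid-primed (2.17), stem-like (1.28) and basophil (0.60) gates. Of the other early regulators, all 6 that were tested rose in the stem-like gate, among them Ikzf2 (2.52) and Msi2 (2.04). These rises were not confined to that gate. Ikzf2 had a larger fold change in the basophil gate (3.89). Msi2 (1.20), Bcl11a (1.35), Etv6 (1.04) and Hhex (1.28) also rose in the lymphoid-primed gate.

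The genes whose log2 levels ran most closely with a factor over the 24 sums were drawn from all genes tested, and their correlations are a description, since sums of 1 gate share their cells and sums of 1 library share a mouse. For Hlf they were Arhgap32 (r = 0.899), Afap1l1 (0.895) and Vldlr (0.881), and for Meis1 Adgrg1 (0.928), Etv6 (0.916) and Pear1 (0.908). Hoxa9 ran with Cd27 (0.943), itself a marker of the lymphoid-primed gate, Ifi203 (0.926) and Sox4 (0.924). Tal1 was closest to Gata1 (0.938), Epb41 (0.891) and Icam4 (0.885). Gata2 was closest to Apoe (0.926), Fbxo9 (0.926) and Fgf3 (0.921), Runx1 to Ptprs (0.940), Malat1 (0.931) and Npl (0.931), and Lmo2 to Pigp (0.878), Plxnc1 (0.874) and Cd81 (0.859). Of the first 3 genes for Mycn, 1 was Meis1 (0.868), the only case in which another of the 10 was among them, and 1 was Tspan6 (0.852).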

How the data were processed

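The deposited tables hold UMI counts per gene and cell, which the authors made with Cell Ranger and STAR on mm10 from 5′ libraries of 4 mice. The submitters' notes also name Seurat 2.3.4, which was not used for these counts here. Of 40545 barcodes, 39167 were kept (200 to 10000 genes and at most 10% mitochondrial UMIs, printed in the methods as 0.10% and read here as a fraction). No doublet caller was run. A marker counted as detected when its UMIs exceeded the 99th Poisson percentile of what 5% of the library's pooled RNA would give. The thresholds of the gates were set on the markers after the files were seen, and the members and lists were chosen with earlier results of these data known. UMIs were summed per gate and library, and genes passing edgeR's filterByExpr were tested with edgeR 4.0.16 (TMM, quasi-likelihood, Benjamini-Hochberg, two-sided) in R 4.3.3. DESeq2 1.42.0 was an alternative. Only the edgeR fits were tested on simulated data. All 10 members were named, with the partners called or of smallest p and the 3 genes of most similar pattern. Some items that these rules pick are not reported here. The 2 libraries of a genotype come from different mice and, per the methods, from 2 experiments that each held 1 mouse of either genotype. The p-values between genotypes thus measure the spread of mouse and experiment together. Those between gates, and of the interaction, come from main fits with the library as a block. They measure the spread that is left once each library has its own level. A permutation of 2 libraries against 2 could not give a p under 0.05. Intervals that a count of 0 allows (3 UMIs) cover counting error only. Gene positions are from GENCODE M21 (GRCm38), promoters from RefSeq.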

Additional observations from a re-analysis of the deposited data

Results flagged for a closer look

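For 2 factors, every TLR9-/- library lay above both WT libraries in 1 gate and below both in another. The share of all genes with such a pattern is not given here, so this count cannot be set against a background. The values below are differences between gates in the log2 ratio of mean CPM (TLR9-/- over WT), and none of these differences was tested. The difference between gates in the genotype effect was tested only for the stem-like against the myeloid gate, where it was not called for any factor.

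Hoxa9 was higher in both TLR9-/- libraries in the lymphoid-primed (log2 ratio 0.69), erythroid (0.90), basophil (1.33) and myeloid (0.49) gates, and lower in both in the megakaryocyte gate (-1.14), where it had 14 UMIs in all. Without WT library 1 the megakaryocyte ratio was -1.57, against the lone WT library 2. The lymphoid-primed ratio exceeded the megakaryocyte ratio by 1.82. The megakaryocyte ratio minus the erythroid, basophil and myeloid ratios gave -2.03, -2.46 and -1.63.

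Gata2 was higher in both TLR9-/- libraries in the stem-like (0.37) and erythroid (1.32) gates and lower in both in the basophil (-0.39) and myeloid (-0.14) gates. The stem-like ratio exceeded the basophil ratio by 0.76. The erythroid ratio exceeded the basophil ratio by 1.71 and the myeloid ratio by 1.46. The neutrophil markers that were uneven between the basophil gates of the 4 libraries were not tested for a part in these values.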

How the results depend on the processing

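Between gates, 30 to 34 of the 34 calls were kept in each alternative, and 0 turned sign. Without TLR9-/- library 1, 3 factors in place of 5 were higher in the megakaryocyte gate (3 to 5 over the libraries left out), since Lmo2 (0.46) and Runx1 (0.62) missed the threshold. For the partners in the megakaryocyte gate, leaving out WT library 1, an alternative chosen after seeing the data, kept 7 higher and 2 lower. Runx1 in the lymphoid-primed against the myeloid gate turned to -0.15 (adjusted p = 0.816) with gates set on thinned cells, and the cause was not tested.

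Between genotypes, the count of factors called was 0 in the main result. Without a filter on low counts it was 1 in the erythroid gate (Gata2, 1.16, adjusted p = 0.00962) and 2 in the 6 gates (Tal1 and Hoxa9, adjusted p = 0.00969 and 0.0124). Over the libraries left out it ranged from 0 to 1 in the megakaryocyte gate, where Mycn reached 6.89 against the lone WT library 1 at 0 UMIs. A lone library was assumed to vary like the other genotype. Over all alternatives the adjusted p ran from 0.00962 to 0.996 for Gata2 in the erythroid gate, from 0.00513 to 0.807 for Tal1 and from 0.0124 to 0.807 for Hoxa9 in the 6 gates. For the partners, DESeq2 called 1 and no filter called 3 in the 6 gates, and leaving out 1 library called 0 to 1 in the stem-like and 0 to 3 in the megakaryocyte gate.

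With the library number as a replicate block, 1 factor was called in the erythroid gate (Gata2, 1.07, adjusted p = 0.0199) and 2 in the 6 gates (Tal1, -0.75, adjusted p = 0.00513, and Hoxa9, 0.70, adjusted p = 0.0160), with 1, 2 and 6 partners in the erythroid and myeloid gates and the 6 gates. The study ran 2 experiments with 1 mouse of each genotype in each, but no source used here says that the number marks the experiment. Deviations of same-numbered libraries correlated from -0.098 in the megakaryocyte gate to 0.471 in the 6 gates, so that a pairing by number is possible and not established. For the interaction the block could not be added, since the library is already in that fit. Over all genes, the 28 called in the 6 gates became 222 with DESeq2, 880 without a filter and 1392 with the block. Calls of factors and partners under these alternatives therefore stand against a larger background than in the main fit. The matching counts for the erythroid and myeloid gates, and the number of genes tested without a filter, are not given here.

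At full depth the share of stem-like cells with a UMI was 48.4% for Hlf, 33.5% for Meis1, 13.2% for Mecom, 30.5% for Hoxa9, 36.2% for Gata2, 33.8% for Runx1, 20.7% for Tal1, 89.8% for Lmo2, 7.84% for Erg and 12.6% for Mycn, since deeper cells show more genes. With 1 more marker in the gate Hlf was seen in 33.1%. Depth limits Mecom, Erg and Mycn, which had 3 to 12, 0 to 7 and 4 to 11 UMIs per library in the stem-like gate.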
